A study of Leptinotarsa decemlineata with 61 samples.

Results

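Whole first instar (L1) larvae of the Colorado potato beetle (Leptinotarsa decemlineata) were compared with fertilized eggs, the stage before hatching. The comparison holds 3 L1 libraries, each from a pool of 3 larvae, and 3 egg libraries, each from a pool of 5 eggs, so 6 of the 61 libraries of an RNA-seq atlas of tissues and stages. Libraries were assigned by sample title and library name, because the tissue field of these labels names other tissues. They carry the sample numbers 1, 2 and 5 for L1 larvae and 1, 2 and 4 for eggs. All 6 are labelled wild type and untreated, all come from the laboratory strain E06, and the larvae fed on potato leaves. A value therefore averages over the individuals of a pool, and no source used here gives the age of the eggs at collection. The other atlas libraries used below are L2 and L3 larvae (whole body, 3 libraries each) and 47 libraries of 9 dissected tissues. The 2 libraries that the study removed as outliers, a female hindgut and a larval yellow fat body, were left out of the 47.

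A newly laid insect egg holds RNA that the mother made in the ovary and loaded into the oocyte. The embryo then breaks this maternal RNA down and begins to transcribe its own genome. A first instar larva has a working gut and an outer cuticle and feeds on leaves. In insects the midgut digests and absorbs food, the Malpighian tubules form urine, the fat body stores nutrients, and hemolymph is the blood.

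The authors deposited TPM values, a measure of RNA per gene that is divided by gene length and by the total of the library. The values multiplied by gene length gave whole numbers of read pairs for 100% of the values above 0, within 0.01 of a read pair. By this count the L1 libraries held 14267128 to 16772098 read pairs on the genes of the table and the egg libraries 13428349 to 16688984. A floor of 3 read pairs, at the median gene length, corresponds to 0.16 to 0.19 TPM in L1 larvae and 0.18 to 0.24 TPM in eggs, which covers counting error only. Above 1 TPM there were 10415 to 10636 genes in L1 larvae and 10933 to 11013 genes in eggs. The genes have identifiers but no names or functions in the files, and 0 of the 15578 identifiers matched the RefSeq gene table, so genes are described here by identifier, position and tissue profile. Positions are those of the deposited file, and no source used here names its genome build.

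The egg libraries differed from each other more than the L1 libraries did. On log2(TPM + 1) over all genes, the Euclidean distance was 240.8 ± 8.03 between L1 and egg libraries (SD over 9 pairs), 42.2 to 43.8 within L1 larvae and 70.6 to 109.4 within eggs. The mean distance between stages exceeded that within stages by 176.2, with p = 0.1 in a one-sided exact permutation test, the smallest p that its 10 splits allow. Egg library 1 lay nearest to the L1 larvae, at a mean distance of 230.8, and egg library 2 farthest, at 248.0. Results that rest on 1 egg library are therefore given per library. The labels do not say whether the pools came from separate clutches, so p-values measure the spread between these pools only.

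In each gene the difference between L1 larvae and eggs was tested with limma on log2(TPM + 1), with Benjamini-Hochberg adjustment over 11990 genes above 1 TPM in at least 2 of the 6 libraries, and a threshold of 0.05. At this scale 2307 genes were higher in L1 larvae (19.2% of those tested), 6588 were lower (54.9%), and 3095 were not called. The median difference over all genes tested was -0.62 on the log2 scale. This imbalance depended on the scaling. After the libraries were rescaled by the median of their ratios, which moved the median difference to -0.01, 4027 genes were higher (33.6%) and 3699 lower (30.9%). Of the genes lower on the TPM scale, 2791 were no longer called and 98 turned higher. Under both scalings 2305 genes were higher in L1 larvae (19.2%) and 3699 lower (30.9%), and a direction given for a named gene below holds under both unless its sentence says otherwise, while counts are on the TPM scale unless stated. On the TPM scale L1 and egg values had no overlap in 2435 genes that were higher and 6916 that were lower, where 19.2% and 54.9% of the genes were called. Large differences were more often increases: 798 called genes were higher by over 3 on the log2 scale and 424 lower by as much, and beyond 5 there were 361 and 161.

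**Figure D1:**
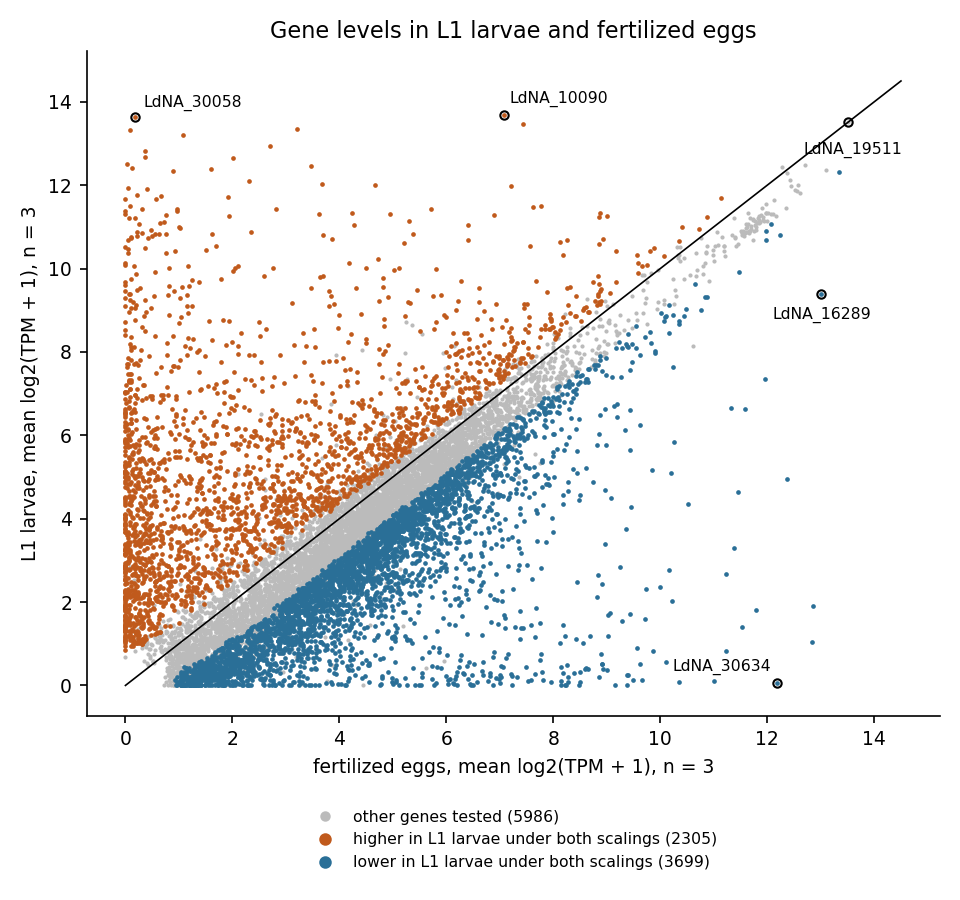
Each point is 1 of the 11990 genes tested, placed by its mean log2(TPM + 1) in fertilized eggs (horizontal axis) and in L1 larvae (vertical axis), 3 libraries each; the line marks equal levels. Orange points are the 2305 genes higher and blue points the 3699 genes lower in L1 larvae under both scalings. The median difference over all points is -0.62, below the line, and LdNA_19511 lies on the line.

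The largest increases belonged mostly to genes of the midgut. Of the 10 genes with the largest difference, 8 were in a list of midgut-specific genes built from the dissected tissues alone. All 10 stood at 2917 TPM or more in every L1 library and at 6.58 TPM or less in every egg library.
LdNA_30058 (chromosome 16, positions 124093 to 132666, plus strand, 3 exons) had 12619, 11477 and 13964 TPM in L1 larvae, against 0.0852, 0.10 and 0.223 TPM in eggs. Its difference was 13.44 ± 0.12 (SE) on the log2 scale, with an adjusted p of 3.44e-09 in limma. The egg values rest on at most 2 read pairs in a library. In the dissected tissues it had a median of 21454 TPM in L4 midgut and 30247 TPM in adult midgut, and 0.27 TPM in ovaries.
Another midgut gene of that chromosome, LdNA_30052 (chromosome 16, positions 19831 to 30925), had 4865, 5337 and 6098 TPM in L1 larvae, against 0, 0.268 and 0 TPM in eggs.
LdNA_31771 (chromosome 17, positions 4179572 to 4210883) had 2917, 3425 and 3436 TPM in L1 larvae and no read pair in any egg library. Taking 3 read pairs per egg library as the floor, it was at least 9006-fold higher in L1 larvae.
The L1 groups of these genes are tight and far from the eggs, whose values sit at the floor.

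The midgut genes of this group included genes shared by L4 and adult midgut and genes of the adult midgut. LdNA_25047, with 9851, 10406 and 10745 TPM in L1 larvae and at most 0.176 TPM in eggs, had 24685 TPM in L4 midgut and 23877 TPM in adult midgut (medians). LdNA_34037 had 3698, 4245 and 3712 TPM in L1 larvae and at most 0.10 TPM in eggs, with medians of 38.9 TPM in L4 midgut and 24832 TPM in adult midgut. LdNA_7244 was of the same kind, at 4935, 6073 and 6469 TPM in L1 larvae and at most 0.0657 TPM in eggs, with 23.4 TPM in L4 midgut and 3623 TPM in adult midgut. LdNA_18004 had 6948, 7441 and 7230 TPM in L1 larvae and at most 0.787 TPM in eggs. Its medians were 0.340 TPM in L4 midgut and 447.0 TPM in adult midgut. No dissected library exceeded 1731 TPM of it, below every L1 value, and the ovary libraries held 6.46 to 19.5 TPM. In LdNA_34037, LdNA_7244 and LdNA_18004 the first instar was far above the midgut of the fourth instar, although the larval libraries hold the whole body.

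The other 2 of the 10 were low in every dissected library. LdNA_5621 (chromosome 3, positions 7299100 to 7301310) had 6634, 7091 and 5900 TPM in L1 larvae, against 1.14, 0 and 0 TPM in eggs, and did not exceed 13.1 TPM in any of the 47 dissected libraries. LdNA_16798 (chromosome 8, positions 26149282 to 26152420) had 9116, 10371 and 8789 TPM in L1 larvae, against 6.58, 0 and 0.228 TPM in eggs, and did not exceed 11.3 TPM in dissected tissue. In L2 larvae LdNA_5621 had 8667 to 14506 TPM and LdNA_16798 had 10454 to 12555 TPM. The L3 libraries differed among themselves, with 69.2, 766.0 and 14837 TPM of LdNA_5621 and 753.7, 3063 and 10213 TPM of LdNA_16798. The dissected tissues do not cover the whole body, and where these 2 genes are expressed was not tested.

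The largest decreases were of genes low in every dissected tissue. Of the 10 genes with the largest decrease, 6 had at most 1 TPM in all 47 dissected libraries, and the highest value of any of the 10 there was 18.0 TPM. Their egg values were 447.9 TPM or more and their L1 values 4.46 TPM or less. In ovaries none exceeded 6.23 TPM and in L3 larvae none exceeded 6.22 TPM, but L2 library 4 held 0.212 to 1112 TPM of them and LdNA_30827 had 130.7, 696.5 and 218.5 TPM in the L2 libraries.
LdNA_30634 (chromosome 16, positions 9953399 to 9968063, minus strand, 4 exons) had 0, 0.0620 and 0.0577 TPM in L1 larvae, against 3794, 3671 and 7223 TPM in eggs. Its difference was -12.13 ± 0.26 (SE), with an adjusted p of 4.80e-08 in limma.
LdNA_30629, a gene of 1 exon on the same chromosome, had 0.869, 2.55 and 0.290 TPM in L1 larvae, against 6524, 6001 and 10057 TPM in eggs. LdNA_30596 had 4.46, 2.03 and 2.20 TPM in L1 larvae, against 6316, 5756 and 10972 TPM in eggs.
In these 3 genes egg library 4 was highest, and the stages did not overlap. LdNA_9362 on chromosome 4 differed in the order of the eggs, with 0.0846, 0.118 and 0.0366 TPM in L1 larvae, against 1275, 2511 and 2754 TPM in eggs.
The lowest egg value was in library 1 for 5 of these 10 genes and in library 2 for the other 5.

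**Figure D2:**
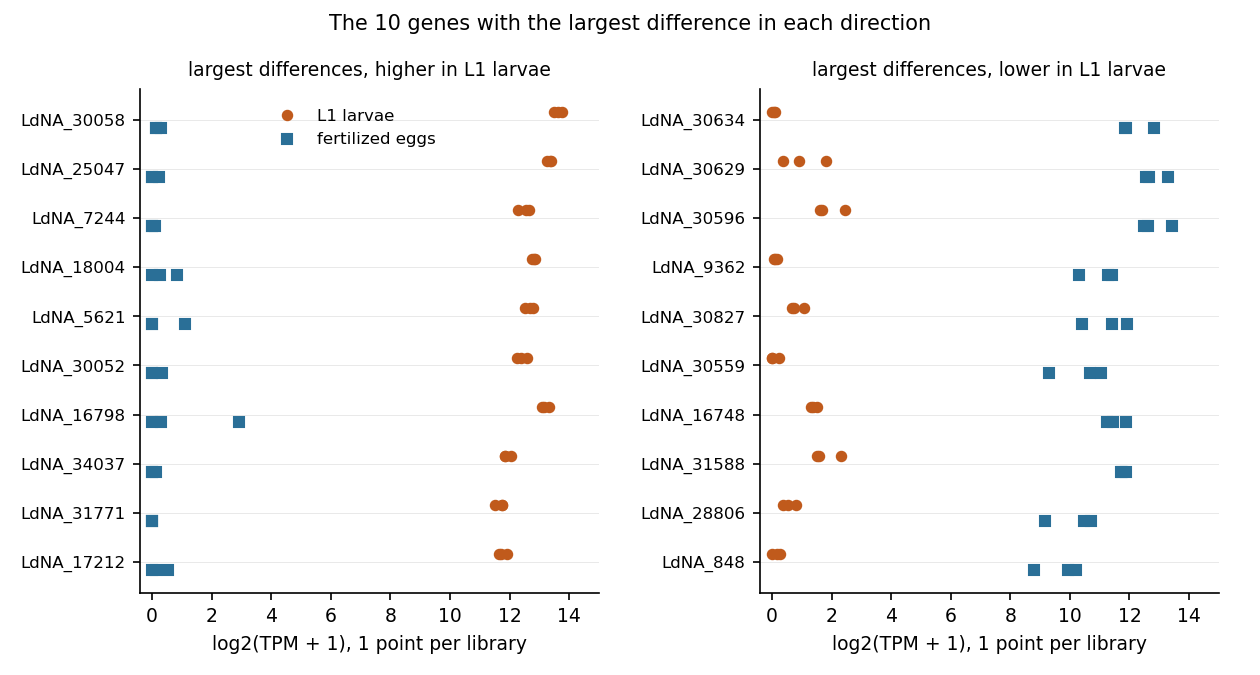
log2(TPM + 1) of the 10 genes with the largest difference in each direction, 1 point per library, with L1 larvae as orange circles and fertilized eggs as blue squares. In the left panel the L1 values all exceed 2917 TPM, and in the right panel the egg values all exceed 447 TPM, with the opposite stage at 6.58 TPM or less.

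The most abundant gene in eggs was also among the 5 most abundant in L1 larvae. This was LdNA_19511, a gene of 1 exon (chromosome 9, positions 51722300 to 51723950), which had 11963, 11635 and 11259 TPM in L1 larvae, against 13500, 11385 and 10292 TPM in eggs. Its difference was -0.00 ± 0.10 (adjusted p = 0.97, limma), and after rescaling 0.70 (adjusted p = 0.0126), so its direction depends on the scale. The other genes of highest level in L1 larvae were LdNA_10090, LdNA_10707 and LdNA_10706 besides LdNA_30058. LdNA_10090, which leads the midgut list, had 12609, 13284 and 13403 TPM in L1 larvae, against 446.9, 41.7 and 126.8 TPM in eggs, a 63.9-fold ratio of means. In eggs the most abundant genes besides LdNA_19511 and LdNA_30596 were LdNA_16289, LdNA_13787 and LdNA_25204. LdNA_16289 varied most between pools, with 606.3, 621.8 and 792.5 TPM in L1 larvae, against 18518, 3095 and 9831 TPM in eggs. It still differed by -3.63 ± 0.58 (adjusted p = 9.83e-04, limma), with no overlap. LdNA_13787 and LdNA_25204 are expressed in all 9 tissues. LdNA_13787 averaged 5093 ± 52.3 TPM in L1 larvae and 10347 ± 834.4 TPM in eggs (SD, n = 3 each), a difference of -1.02 that shrank to -0.32 after rescaling and was called at both scales. LdNA_25204 averaged 5256 ± 209.2 TPM in L1 larvae and 8737 ± 540.4 TPM in eggs, and its call was lost after rescaling (-0.03, adjusted p = 0.81, limma).

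To describe which organs the changed genes belong to, lists were built from the 47 dissected libraries, in which neither eggs nor whole larvae took part. A gene was taken as specific for a tissue where tau, an index that is 0 for even expression and 1 for a single tissue, exceeded 0.85 and its highest median exceeded 10 TPM. In these bulk samples fewer cells of a type and less RNA per cell cannot be told apart. List members under the low-value filter were not tested, and the counts are of the tested members. The counts of higher genes under both scalings were the same as on the TPM scale for each list except the tubules, where 90 of the 91 held. Among lower genes fewer held, with 2 in midgut, 5 in tubules, 4 in fat body, 18 in hindgut, 21 in hemolymph, 58 in testes, 30 in ovaries, 18 in aedeagus and 21 in genital ducts.

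The midgut list stood out. Of its 338 genes 329 were tested, and 314 were higher in L1 larvae (95.4%) and 5 lower (1.52%). Over all genes the shares were 19.2% and 54.9%. The median difference of the list was 4.58, against -0.62 over all genes. After rescaling the counts were 321 and 2. Its genes made up 15.9, 15.7 and 16.5% of all TPM in L1 larvae, against 0.228, 0.115 and 0.122% in eggs. This holds for the 3 parts of the list: 30 of 33 tested genes of the larval midgut, 128 of 130 of the adult midgut and 156 of 166 of both were higher. The median differences were 3.79, 5.17 and 4.40. The leading larval midgut gene, LdNA_25168, had 1854, 1798 and 2026 TPM in L1 larvae, against 8.32, 3.23 and 2.39 TPM in eggs. Among the 5 lower genes LdNA_15898 had the highest egg level and LdNA_14261 the highest in the larval part of the list. LdNA_15898 averaged 27.6 ± 0.95 TPM in L1 larvae and 41.2 ± 7.15 TPM in eggs, and LdNA_14261 23.3 ± 3.82 TPM in L1 larvae and 33.1 ± 2.38 TPM in eggs. Neither was called after rescaling (adjusted p = 0.43 and 0.34, limma).

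The Malpighian tubule list followed, with 91 of 108 tested genes higher (84.3%) and 6 lower (5.56%), against 19.2% and 54.9% of all genes. The median difference of this list was 2.89. Its genes made up 0.556 to 0.606% of TPM in L1 larvae and 0.0751 to 0.249% in eggs. Its leading gene, LdNA_2239 (chromosome 1, positions 47635657 to 47636755), had 2782, 2469 and 2194 TPM in L1 larvae, against 1129, 142.4 and 831.4 TPM in eggs, a difference of 2.27 ± 0.70 (adjusted p = 0.0207, limma). That call was lost without L1 library 1 (adjusted p = 0.0647) and without L1 library 2 (0.0557). A tubule gene in the other direction was LdNA_22685, with 34.5, 29.5 and 45.6 TPM in L1 larvae, against 354.9, 341.3 and 486.8 TPM in eggs.

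Other organs were mixed. In the fat body list 13 of 23 tested genes were higher (56.5%) and 9 lower (39.1%), and after rescaling 13 were higher and 4 lower. LdNA_17660 averaged 88.9 ± 8.86 TPM in L1 larvae and 35.8 ± 5.6 TPM in eggs, while LdNA_3159, at 52.0 ± 6.05 TPM in L1 larvae and 81.2 ± 10.1 TPM in eggs, was not called after rescaling (adjusted p = 0.78, limma). Of 60 hindgut genes tested, 25 were higher (41.7%, against 19.2% of all genes) and 20 lower (33.3%, against 54.9%). LdNA_10662 had 441.0, 547.8 and 613.3 TPM in L1 larvae and at most 1.10 TPM in eggs, and in L2 larvae at most 1.48 TPM. LdNA_6552 had 3.07, 4.6 and 4.97 TPM in L1 larvae, against 1249, 664.4 and 1287 TPM in eggs. Of 58 hemolymph genes tested, 8 were higher (13.8%) and 25 lower (43.1%), with a median of -0.59 against -0.62 over all genes. LdNA_18056 averaged 33.6 ± 5.30 TPM in L1 larvae and 0.385 ± 0.217 TPM in eggs. LdNA_3003 averaged 1.09 ± 0.186 TPM in L1 larvae and 38.8 ± 31.2 TPM in eggs.

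Genes of the reproductive tissues of adults were tested only in part, because most of their genes were under the low-value filter. Of 947 testis genes 135 were tested, with 21 higher (15.6%) and 78 lower (57.8%), and of 273 ovary genes 75 were tested, with 23 higher (30.7%) and 36 lower (48.0%). Over all genes the shares were 19.2% and 54.9%, so the testis shares were near those of all genes. Their medians were -0.93 and -0.74, against -0.62 over all genes, and after rescaling -0.56 and -0.42, against -0.01. After rescaling 43.0% of the testis genes and 40.0% of the ovary genes were lower, against 30.9% of all genes. LdNA_21990, a testis gene by this index with at most 126.8 TPM in dissected tissue, reached 3459, 3225 and 3525 TPM in L1 larvae, against 0.509, 0.449 and 0.832 TPM in eggs. LdNA_14727, another testis gene, had no read pair in any L1 library and 184.3, 32.1 and 120.6 TPM in eggs, so it was at least 114-fold lower in L1 larvae with 3 read pairs per library as the floor. Among ovary genes, LdNA_17335 had 1006, 974.0 and 1015 TPM in L1 larvae, against 60.2, 29.4 and 17.0 TPM in eggs. LdNA_16069 had 1.67, 1.90 and 1.63 TPM in L1 larvae, against 1161, 15.3 and 370.9 TPM in eggs. Its difference of -6.13 ± 1.38 was called on both scales (adjusted p = 0.00527, limma) but not with limma voom on read pairs (0.22). In the aedeagus list, 47 of 89 were higher (52.8%) and 22 lower (24.7%), led by LdNA_10668 on chromosome 5, at 5500, 5736 and 5664 TPM in L1 larvae, against 200.1, 0.857 and 2.7 TPM in eggs. LdNA_18343, the leading lower gene of that list, averaged 34.6 ± 11.1 TPM in L1 larvae and 1314 ± 661.9 TPM in eggs. It overlaps a gene on the opposite strand, and since the libraries carry no strand its value is uncertain. In the genital ducts list 10 of 46 were higher (21.7%) and 28 lower (60.9%), near the shares over all genes on the TPM scale only. Its median was -1.06, against -0.62 over all genes. After rescaling 45.7% of this list were lower, against 30.9% of all genes, with a median of -0.78 against -0.01. LdNA_27667 averaged 322.4 ± 36.3 TPM in L1 larvae and 1.86 ± 2.39 TPM in eggs. LdNA_23655, at 3.33, 6.93 and 8.64 TPM in L1 larvae, against 106.3, 10.5 and 34.1 TPM in eggs, was called at the TPM scale only (adjusted p = 0.0240, limma, and 0.12 after rescaling). Without egg library 4, L1 library 1 or L1 library 2 its adjusted p was 0.0552, 0.0854 and 0.0540.

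Genes expressed in all 9 tissues changed direction with the scaling, which also moved the median of all genes upward. Of 2648 such genes 332 were higher (12.5%) and 1559 lower (58.9%) on the TPM scale, with a median of -0.53. Over all genes tested the shares were 19.2% and 54.9% and the median -0.62. After rescaling 1103 of the 2648 were higher (41.7%) and 546 lower (20.6%), with a median of 0.16. Over all genes the shares were then 33.6% and 30.9% and the median -0.01. The 332 higher and 546 lower genes were called at both scales. These genes took up 44.8 to 46.5% of TPM in L1 larvae and 58.0 to 68.8% in eggs. LdNA_702, the most abundant one among those higher in L1 larvae, averaged 3302 ± 57.0 TPM in L1 larvae and 2248 ± 20.5 TPM in eggs, a difference of 0.55 on the TPM scale and 1.26 after rescaling. The smallest called differences beyond 1 among genes averaging over 100 TPM were in such genes too. LdNA_22655 averaged 153.3 ± 9.42 TPM in L1 larvae and 74.9 ± 7.92 TPM in eggs, and LdNA_10044 averaged 71.3 ± 4.41 TPM in L1 larvae and 144.3 ± 20.2 TPM in eggs.

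At the other end, 294 tested genes had at most 1 TPM in every dissected library. Of these 46 were higher (15.6%) and 202 lower (68.7%) in L1 larvae, against 19.2% and 54.9% of all genes. Under both scalings 186 were lower. The median of the 294 genes was -1.30. The leading higher gene, LdNA_11544 (chromosome 5, positions 54900681 to 54907549), had 4298, 4769 and 4211 TPM in L1 larvae, against 11.1, 2.20 and 2.12 TPM in eggs. It had 4072 to 5866 TPM in L2 larvae and 1.71, 5.79 and 726.2 TPM in L3 larvae.

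**Figure D3:**
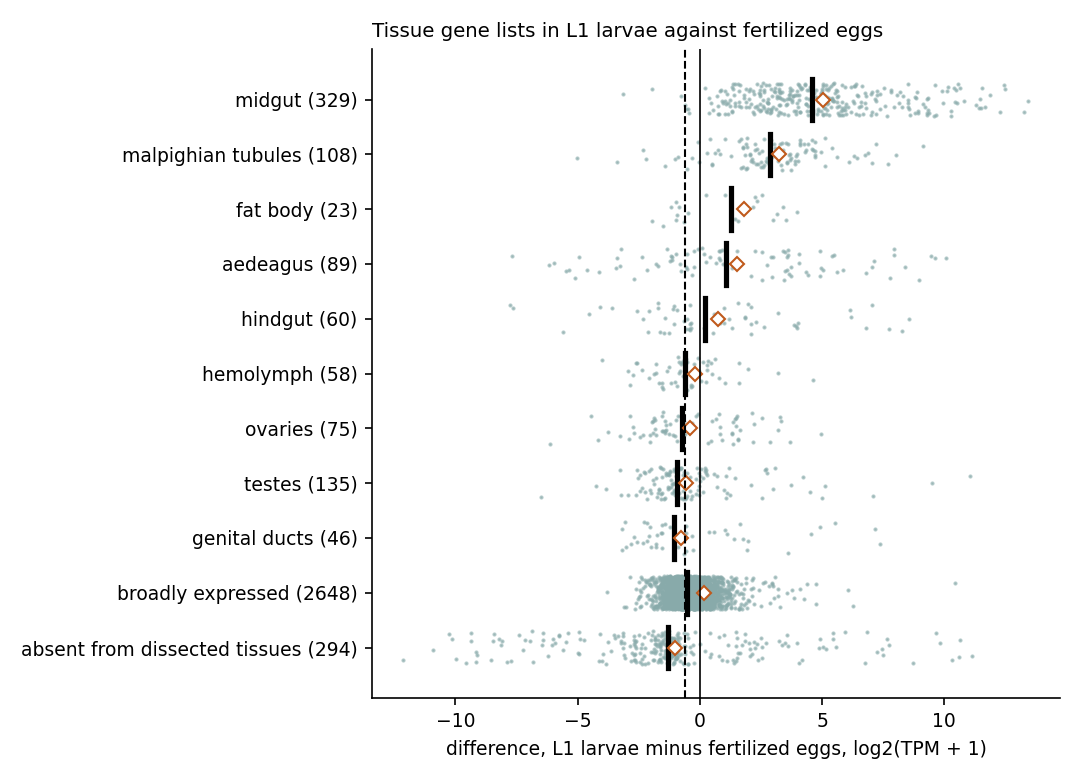
Difference between L1 larvae and fertilized eggs on log2(TPM + 1) for the tested genes of each list (1 point per gene, number tested in parentheses, vertical scatter random). Black bars are the medians, open diamonds the medians after rescaling, and the dashed line the median of all genes tested, -0.62. The midgut and tubule lists have medians of 4.58 and 2.89. With the rescaling the broadly expressed list moves from -0.53 to 0.16 and the median of all genes tested from -0.62 to -0.01.

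A stricter view counted genes that were near absent in all libraries of a stage and clearly present in all of the other. There were 335 genes under 1 TPM in all 3 egg libraries and above 10 TPM in all 3 L1 libraries, called switched on here, and 133 with the reverse pattern, called switched off. These counts describe levels, and no test was made on them. The switched-on genes made up 14.3% of the mean TPM of L1 larvae and 0.00627% of that of eggs. The switched-off genes made up 0.00347% of the mean TPM of L1 larvae and 3.45% of that of eggs. Of the switched-on genes 64 had no read pair in any egg library, and of the switched-off genes 15 had none in any L1 library.

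The sets differed in where else the genes were expressed. Of the 335 switched-on genes, 193 (57.6%) were specific for a dissected tissue, against 7.70% of all genes tested. Of these, 138 were specific for midgut, 34 for Malpighian tubules and 11 for aedeagus. Absent from all dissected libraries were 12 (3.58%) of the 335. Of the 133 switched-off genes, 7 (5.26%) were specific for a tissue, near the share over all genes. Absent from all dissected libraries were 33 (24.8%) of the 133, against 2.45% of all genes tested. Low ovary levels were common to both sets. At most 1 TPM in all 3 ovary libraries was found for 97 of the 133 (72.9%) and 225 of the 335 (67.2%). Over all genes tested the share was 22.0%. The median length was 1126 bp in the switched-on and 1131 bp in the switched-off genes, against 1407 bp over all genes tested.

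Both sets were followed through the older larvae. Above 10 TPM were 279, 263 and 283 of the 335 switched-on genes in L2 larvae and 207, 257 and 264 in L3 larvae. In adult midgut libraries the number was 177 to 195, and in ovaries 17 to 28. The switched-off genes remained low in L3 larvae, with 3, 2 and 1 of the 133 above 10 TPM. In L2 larvae there were 14, 73 and 26. The 73 (54.9%) belong to L2 library 4, in which all of the 10 genes with the largest decrease had a higher value than in the other L2 libraries, for example LdNA_30634 at 715.4 TPM against 3.01 and 22.8 TPM. The median of the switched-off genes was 1.09, 13.9 and 1.83 TPM in L2 libraries 1, 4 and 5. Over all genes L2 library 4 was also nearer to the eggs, at distances of 210.7 to 215.9, than the other L2 libraries at 228.4 to 233.7. Nearness to eggs was not limited to this library, since each egg library was on average nearer to L2 than to L1 larvae. The mean distances to L2 larvae were 223.2, 225.5 and 227.0 for egg libraries 1, 2 and 4. To L1 larvae they were 230.8, 248.0 and 243.6. The L2 libraries took no part in the test between L1 larvae and eggs. Why L2 library 4 holds these RNAs was not tested.

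**Figure D4:**
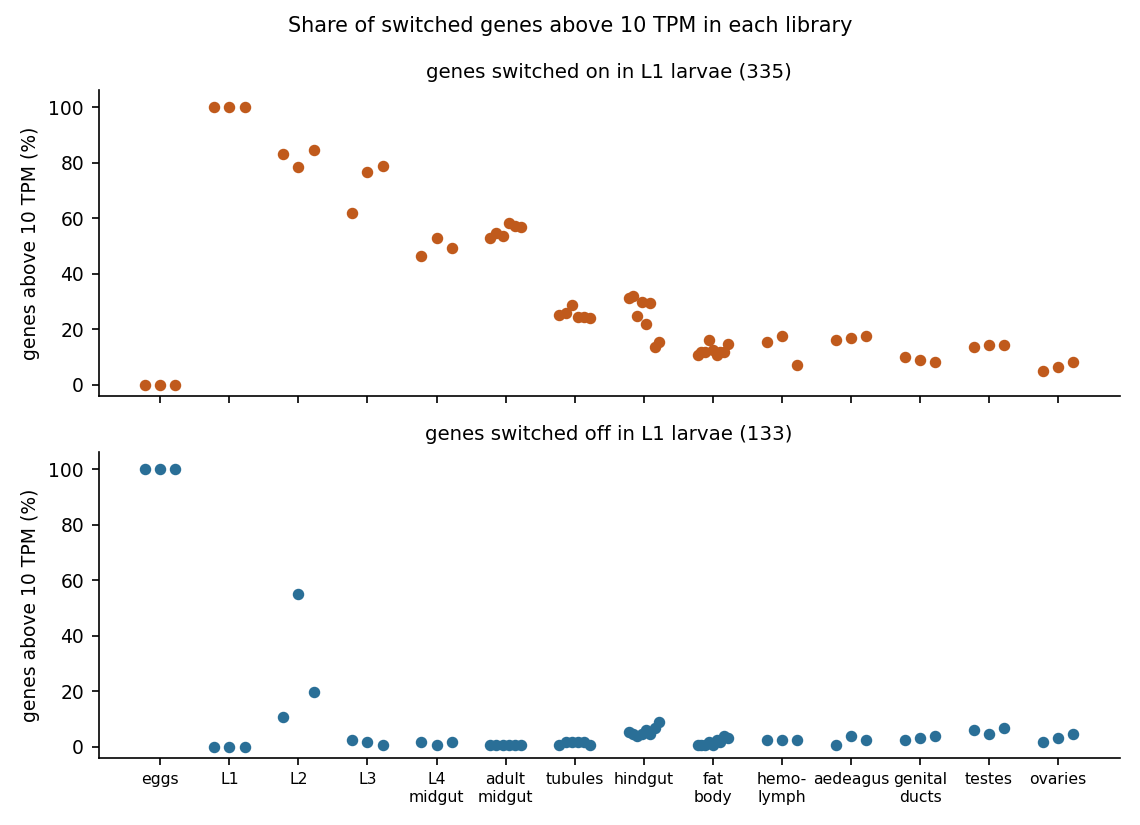
Share (%) of the 335 switched-on genes (top) and the 133 switched-off genes (bottom) above 10 TPM in each library kept by the study. There is 1 point per library, with stages and tissues along the horizontal axis. The values of 0 and 100% in eggs and L1 larvae follow from the definition. L2 library 4 stands apart in the lower panel at 54.9%, and adult midgut libraries hold 52.8 to 58.2% of the switched-on genes.

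The egg RNA was also sorted by its presence in the ovary, where maternal RNA is made. On log2(TPM + 1) the mean distance to the ovary libraries was 270.2 for egg library 1, 250.5 for egg library 2 and 255.2 for egg library 4, so egg library 1 was the farthest from ovaries and the nearest to L1 larvae. Above 10 TPM in all egg libraries were 6385 genes. Of these, 4694 were also above 10 TPM in all 3 ovary libraries, and 439 had at most 1 TPM in each. Because high egg values chose both groups, their differences are given as a description. A level of at most 1 TPM is low but not an absence of RNA. In the ovary libraries the 10 most abundant genes held 56.4, 35.3 and 25.6% of TPM, which lowers the values of all others. The adults were kept singly from emergence to dissection. Whether the 439 genes have maternal RNA in eggs was not tested. Among the 4694 genes 436 were higher and 2995 lower in L1 larvae, with a median of -0.64 against -0.62 over all genes tested, and after rescaling 1605 were higher and 1336 lower, with a median of 0.04 against -0.01. Among the 439 genes of at most 1 TPM in ovaries 49 were higher and 351 lower, with a median of -2.51. After rescaling the counts were 70 and 315, with a median of -1.92. Over all genes tested 19.2% were higher and 54.9% lower, and after rescaling 33.6% and 30.9%. Genes shared by eggs and ovaries thus had a median near that of all genes on both scales.

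Some abundant genes of each stage were nearly missing from the dissected tissues. Of 1124 genes above 100 TPM in all L1 libraries, 59 (5.25%) did not exceed 10 TPM in any of the 47 dissected libraries, and of these 48 were higher and 1 lower in L1 larvae. Of 1071 genes above 100 TPM in all egg libraries, 51 (4.76%) met the same limit, and all 51 were lower in L1 larvae, 50 of them under both scalings. Over all genes tested 19.2% were higher and 54.9% lower, and 30.9% were lower under both scalings. High values in 1 stage chose the 59 and the 51 genes, so their directions are a description. The 51 egg genes summed to 285.3, 396.9 and 499.1 TPM in L1 larvae, against 77337, 47918 and 73564 TPM in eggs. In L2 library 4 their sum was 15796 TPM, against 1197 and 2357 TPM in the other L2 libraries. The 59 larval genes summed to 60705, 63677 and 64523 TPM in L1 larvae, against 19557, 631.7 and 3204 TPM in eggs, with egg library 1 the highest again.

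The spread among eggs was itself structured. The range over the 3 libraries of a stage exceeded 2 on the log2 scale in 51 genes in L1 larvae and in 433 genes in eggs. The median range was 0.29 in L1 larvae and 0.46 in eggs. Of the 433 genes, 378 were higher in egg library 1 than in egg library 2, and egg library 4 lay between them in 341 (78.8%). Egg library 1 exceeded both others by over 2 in 179 genes, and egg library 2 fell below both by as much in 122. Among the 378 genes the median level was 71.4 TPM in egg library 1, 2.25 in egg library 2 and 14.4 in egg library 4. Of these 378 genes 145 did not exceed 10 TPM in any dissected library. Among the 6385 genes above 10 TPM in all egg libraries the number was 221 (3.46%). The L1 larvae were nearer to egg library 1 than to egg library 2 in 176 of the 378. They were nearer to it in 46 of the 55 genes that were lower in egg library 1. In the fit 89 of the 378 were higher in L1 larvae and 99 lower, where 19.2% and 54.9% of all genes tested were called. Whether the pools differed in age was not tested, since the labels give no age.

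The widest ranges in eggs came from a group of neighbouring genes on chromosome 14, between LdNA_28231 and LdNA_28252 (positions 19509259 to 19638185). The group was chosen after its values were seen, and it holds 19 genes of the table, of which 18 were tested. The 3 genes of widest range were LdNA_28239, LdNA_28243 and LdNA_28236. LdNA_28239 had 137.0, 137.6 and 217.6 TPM in L1 larvae, against 1984, 0 and 193.2 TPM in eggs. LdNA_28243 had 116.1, 111.0 and 216.8 TPM in L1 larvae, against 1883, 0 and 170.5 TPM in eggs, and LdNA_28236 had 245.8, 215.3 and 296.8 TPM in L1 larvae, against 1627, 0 and 139.7 TPM in eggs. The egg values lie on both sides of the larval ones, and none of the 3 was called (adjusted p = 0.68, 0.71 and 0.45, limma). Over the whole group the summed level was 6205, 5715 and 5644 TPM in L1 larvae, against 17702, 42.8 and 1304 TPM in eggs. Egg library 1 was the highest egg library for 18 of the 19 genes, and 17 were under 1 TPM in egg library 2. In the fit 3 genes of the group were called higher in L1 larvae and 15 were not called. Over all genes tested 19.2% were called higher and 54.9% lower. In L1 larvae the widest ranges, in LdNA_1805, LdNA_656 and LdNA_19164, all came from L1 library 5. LdNA_1805 had 64.4, 66.5 and 0.0857 TPM in L1 larvae, against 39.4, 48.1 and 51.7 TPM in eggs, and was not called (adjusted p = 0.39, limma). Without L1 library 5 it was higher in L1 larvae by 0.50 (adjusted p = 0.0434). LdNA_656 and LdNA_19164 stood at 0.70 and 0.130 TPM in L1 library 5, against 48.7 and 15.9 TPM in L1 library 1.

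Genes of 1 direction lay near each other along the chromosomes. On the TPM scale the next gene in the table was also higher for 39.4% of the higher genes, against 19.2% of all genes tested, and also lower for 61.2% of the lower genes, against 54.9%. The shares for genes lower under both scalings were 38.3% against 30.9%. Several stretches are described next. They, and the genes named only as their members, were chosen after their values were seen, so no test was made on a stretch. Their counts stand beside 19.2% higher and 30.9% lower under both scalings over all genes tested. Whether their genes are near-identical copies whose reads could be exchanged was not tested.

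The stretch with the highest egg level was on chromosome 16. Between LdNA_30559 and LdNA_30634 (positions 8585441 to 9968063) the table holds 27 genes, of which 25 were tested, and 23 were lower and 2 higher in L1 larvae under both scalings. Their summed level was 97.4, 108.4 and 104.9 TPM in L1 larvae, against 21666, 25746 and 39818 TPM in eggs. Its genes did not rank the eggs alike. LdNA_30580 had 0.0981, 0.0912 and 0.0849 TPM in L1 larvae, against 657.4, 466.3 and 1230 TPM in eggs. LdNA_30582 had 0, 0.288 and 0 TPM in L1 larvae, against 82.9, 384.4 and 217.2 TPM in eggs. In 10 genes of the stretch egg library 2 was highest and in 11 egg library 4, and 14 genes exceeded 100 TPM in every egg library. In ovaries the whole stretch summed to 7.81 to 9.29 TPM. The 2 exceptions, LdNA_30623 and LdNA_30624, were midgut genes at 56.6, 50.2 and 60.5 TPM and 23.5, 41.4 and 30.5 TPM in L1 larvae, against at most 0.0690 TPM in eggs. Another gene of the same chromosome outside the stretch, LdNA_30827, had 1.11, 0.589 and 0.651 TPM in L1 larvae, against 1345, 3833 and 2707 TPM in eggs.

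**Figure D5:**
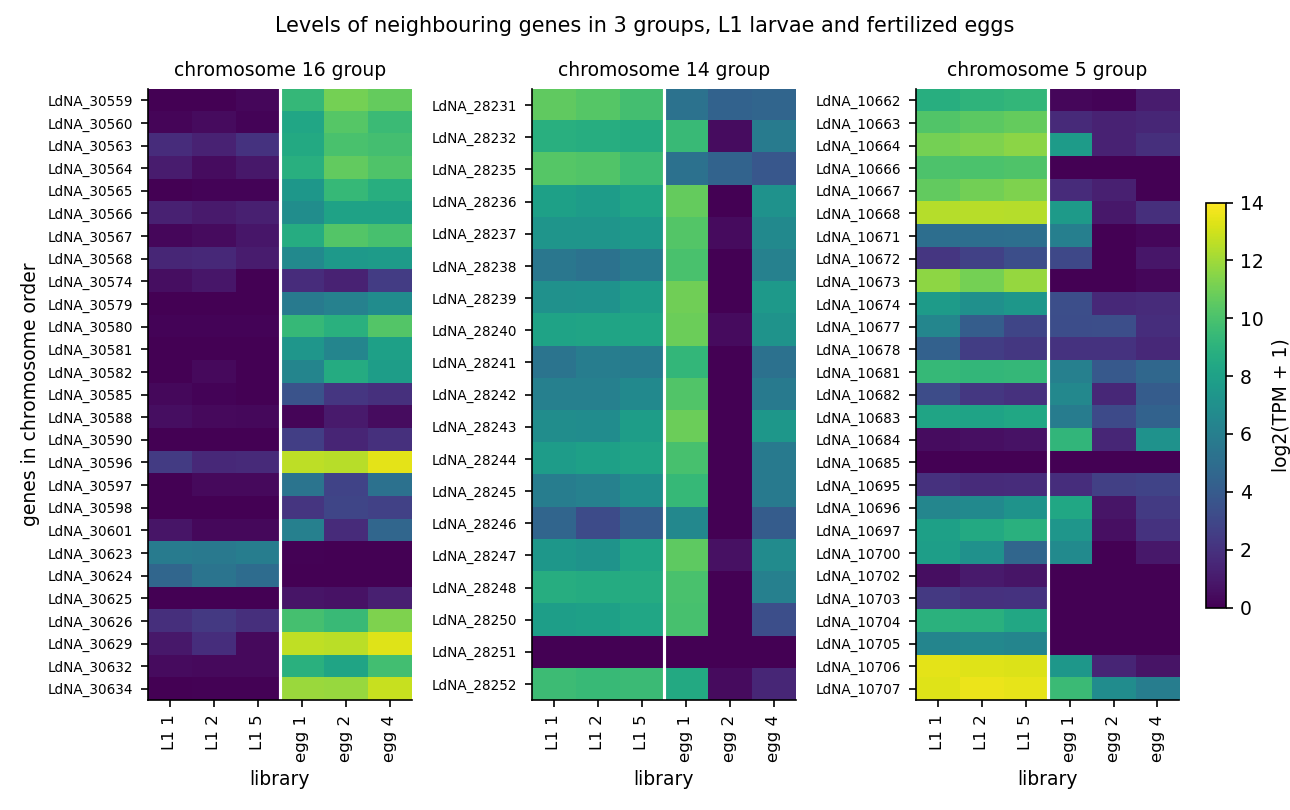
Levels (colour, log2(TPM + 1)) of neighbouring genes in 3 stretches, 1 row per gene in chromosome order and 1 column per library, L1 larvae left of the white line and fertilized eggs right of it. In the chromosome 16 stretch 14 of 27 genes exceed 100 TPM in every egg library, in the chromosome 14 stretch 17 of 19 genes are under 1 TPM in egg library 2, and in the chromosome 5 stretch 14 of 27 genes exceed 100 TPM in every L1 library.

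On chromosome 5, between LdNA_10662 and LdNA_10707 (positions 28411765 to 29103989), 16 of 25 tested genes were higher in L1 larvae under both scalings, and 1 was lower on the TPM scale only. The stretch summed to 39005, 40339 and 41605 TPM in L1 larvae, against 2825, 162.8 and 291.9 TPM in eggs. It holds 2 of the most abundant larval genes. LdNA_10707 had 10352, 12247 and 11300 TPM in L1 larvae, against 752.0, 109.0 and 61.0 TPM in eggs, and LdNA_10706 had 10995, 10386 and 9912 TPM in L1 larvae, against 169.9, 1.75 and 0.650 TPM in eggs. Here too egg library 1 was highest, in 16 genes of the stretch. The exception by direction was LdNA_10684, with 0.390, 0.508 and 0.607 TPM in L1 larvae, against 592.8, 1.88 and 138.2 TPM in eggs.

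In 2 other larval stretches all egg libraries were low. Between LdNA_21989 and LdNA_21998 on chromosome 11 (positions 17463948 to 17550523) all 8 tested genes were higher in L1 larvae, and the 9 genes of the table summed to 17025, 16451 and 18467 TPM in L1 larvae, against 8.51, 4.35 and 4.70 TPM in eggs. In the dissected tissues the sum was highest in an aedeagus library, at 55073 TPM, mostly from LdNA_21997 with a median of 37374 TPM in aedeagus. The most abundant in L1 larvae, LdNA_21998, had 5129, 5139 and 5707 TPM in L1 larvae, against 5.19, 1.36 and 0.943 TPM in eggs. The sum of the stretch was lower in the older larvae, at 366.6 to 3034 TPM in L2 larvae and 3111 to 6979 TPM in L3 larvae. Between LdNA_16724 and LdNA_16729 on chromosome 8 (positions 24163845 to 24232106) all 6 genes were higher in L1 larvae. They summed to 9538, 11481 and 10385 TPM in L1 larvae, against 3.38, 1.45 and 1.60 TPM in eggs, and to at most 4.92 TPM in any dissected library. All 6 genes overlap a gene on the opposite strand, and since the libraries carry no strand their values are uncertain.

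The longest unbroken run of higher genes held 9 genes on chromosome 11, from LdNA_22896 to LdNA_22907 (positions 43553562 to 43724738). Its leading gene in L1 larvae, LdNA_22900, had 2102, 2054 and 2426 TPM in L1 larvae, against 2.45, 0 and 0.110 TPM in eggs, and LdNA_22905 had 1458, 1545 and 1976 TPM in L1 larvae, against 0.102, 0 and 0 TPM in eggs. LdNA_22906 averaged 1317 ± 64.4 TPM in L1 larvae and 0.0420 ± 0.0727 TPM in eggs. LdNA_22904 averaged 627.2 ± 50.9 TPM in L1 larvae and 1.25 ± 1.10 TPM in eggs, and LdNA_22901 557.6 ± 108.5 TPM in L1 larvae and 1.69 ± 1.91 TPM in eggs. LdNA_22903 had 1536, 1586 and 1970 TPM in L1 larvae, against 52.6, 0.222 and 46.5 TPM in eggs. LdNA_22896, at the edge of the run, is a hindgut gene with a median of 110640 TPM in adult hindgut and had 418.2, 489.3 and 430.8 TPM in L1 larvae, against 47.5, 11.4 and 37.6 TPM in eggs. The weakest members were LdNA_22902, at 5.22, 42.7 and 101.6 TPM in L1 larvae, against 1.13, 0 and 1.11 TPM in eggs, and LdNA_22907. LdNA_22907 had 16.4, 17.0 and 16.0 TPM in L1 larvae, against 16.6, 0.252 and 0.28 TPM in eggs, so its values overlap. Its adjusted p of 0.0447 (limma) became 0.0981 to 0.132 when any library other than egg library 1 was left out.

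The longest run of lower genes on the TPM scale held 20 genes on chromosome 1, from LdNA_2747 to LdNA_2770 (positions 67457655 to 67788870), of which 15 were lower under both scalings. LdNA_2767 had 0.125, 0 and 0 TPM in L1 larvae, against 44.5, 56.1 and 65.3 TPM in eggs. LdNA_2762 averaged 1.44 ± 0.820 TPM in L1 larvae and 84.7 ± 21.4 TPM in eggs, LdNA_2764 1.47 ± 0.126 TPM in L1 larvae and 56.8 ± 14.9 TPM in eggs, and LdNA_2760 0.131 ± 0.134 TPM in L1 larvae and 26.9 ± 4.04 TPM in eggs. LdNA_2751 was the most variable, with 0.249, 0.809 and 0.753 TPM in L1 larvae, against 982.6, 15.3 and 165.1 TPM in eggs. The differences of LdNA_2759, LdNA_2766, LdNA_2769, LdNA_2763 and LdNA_2749 lay between -4.25 for LdNA_2759 and -1.39 for LdNA_2749. The other 10 genes of the run had smaller differences, between -1.36 for LdNA_2757 and -0.37 for LdNA_2752. After rescaling 4 of these 10 were no longer called, and LdNA_2752 was higher in L1 larvae by 0.32 (adjusted p = 0.0276, limma). Under both scalings the longest run of lower genes held 15 genes and lay in and just before the egg stretch of chromosome 16, from LdNA_30552 to LdNA_30585.

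By chromosome the share of higher genes on the TPM scale was lowest on chromosome 6, with 57 of 630 genes (9.05%), and highest on chromosome 18, with 97 of 352 (27.6%). The share of lower genes was 69.4% on chromosome 6 and 45.7% on chromosome 18. The 133 switched-off genes were among 11990 tested genes. Chromosome 16 held 14 of them among its 543 tested genes (2.58%), of which 10 lay in the stretch described above. Chromosome 1 also held 14, among 941 (1.49%), and chromosome 17 held 0 among 334.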

How the data were processed

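RNA of whole pools was poly(A)-selected and sequenced in paired ends with a kit that keeps no strand. Per the methods, the authors trimmed reads with Trimmomatic, aligned them with STAR and counted them with featureCounts. The processing notes also list FastQC 0.11.9 and Subread 2.0.5. The authors deposited the counts as TPM per gene. Egg pool 1 also served the authors for building gene models, while no short-read L1 library did, and its effect on the counts was not tested. All columns were mapped to samples by title.

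Genes above 1 TPM in at least 2 of the 6 libraries were tested with limma 3.58.1 in R 4.3.3 (moderated fit with intensity trend) on log2(TPM + 1), and p-values were adjusted over all genes tested. A fold change on this scale understates that of low genes. Rescaling used median-of-ratios factors, 0.76 to 0.84 for L1 larvae and 1.15 to 1.42 for eggs. On simulated data for this comparison, 152 of 194 genes changed by 1 on the log2 scale were recovered with 5 false calls (11716 genes), and 191 of 194 changed by 2 with 10 false calls (11719 genes). The simulation changed only these few genes, evenly in both directions, and gave all genes a common spread. Its false calls therefore do not measure the error under the scaling shift or the wider spread of the eggs. Replicates of a stage were checked by a chi-square per gene on recovered read pairs, 14.8 to 16.9 within L1 larvae and 54.7 to 176.5 within eggs, so no library was a repeat of another.

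Tissue lists used tau over 9 tissues above 0.85 and a median above 10 TPM. Midgut genes were split by a ratio of 4 between L4 and adult midgut, and broadly expressed genes had medians above 10 TPM in all 9 tissues. Genes were named by rule: the 10 largest non-overlapping differences in each direction, the 5 most abundant of each stage, the most abundant called member of each list and direction, up to 10 members of the longest run in each direction, the 3 widest ranges per stage, and the smallest called difference above 1 in each direction among genes averaging over 100 TPM. The members and lists were chosen with earlier results of these data known. Alternatives were other pseudocounts, filters, scaling, limma voom on read pairs, a fit with L2 and L3 larvae, a replicate block, other limits for the lists and switched genes, and leaving out each library.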

Additional observations from a re-analysis of the deposited data

How the results depend on the processing

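The split between higher and lower genes depended on the scaling. Median-of-ratios rescaling gave 4027 higher and 3699 lower genes, and limma voom on recovered read pairs with the same factors gave 4024 and 3555. With rescaling and 1 library left out, an alternative chosen after seeing the data, the higher genes numbered 4002, 3883 and 3665 without egg libraries 1, 2 and 4 and 3680, 3739 and 3714 without L1 libraries 1, 2 and 5. The lower genes numbered 3541, 3493 and 3245 without those eggs and 3238, 3328 and 3181 without those larvae. On the TPM scale, leaving out 1 library gave 2083 to 2403 higher and 5817 to 6842 lower. The median difference was -0.0074 after rescaling and -0.37 without a filter on low values. The switched-off genes numbered 200 with a limit of 5 TPM in place of 10 and 87 with a limit of 0.5 TPM in place of 1. With tau above 0.90 the median became -0.072 for the hindgut list and -0.56 for the fat body list, and the broadly expressed list had 0.16 after rescaling. The difference of LdNA_19511 became 0.70 after rescaling and 0.70 with voom, that of LdNA_15898 0.13 and 0.13, that of LdNA_3159 0.060 and 0.058, and that of LdNA_14261 0.18 and 0.19. The difference of LdNA_1805 ranged from -2.48 without L1 library 2 to 0.50 without L1 library 5. With voom the calls of LdNA_22902 (adjusted p = 0.11) and LdNA_2751 (adjusted p = 0.35, limma voom) were lost. The cause of these shifts was not tested.

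With the sample number as a replicate block, 1894 genes were higher and 4808 lower. Numbers 4 and 5 each occur in 1 stage only, so this fit draws the stage difference from the libraries numbered 1 and 2. The deviations of same-numbered eggs and larvae correlated at -0.091 for number 1 and 0.062 for number 2. With only these 2 shared numbers, the correlations cannot decide whether same-numbered pools were paired. With 3 pools per stage, 15 of the 18 tested genes of the chromosome 14 stretch were not called, and levels at or under 3 read pairs are not measured here.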
